A study of Mus musculus with 36 samples.

Results

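The amino acid transporters described here are the protein-coding mouse genes whose symbols begin with *Slc1a*, *Slc3a*, *Slc7a*, *Slc36a* or *Slc38a* followed by a number. The rule uses names alone and gave 39 genes, out of 21764 protein-coding genes with a symbol in the files of the sorted cells and 21251 in the other files. They were followed through BiPNT, a primed to naïve transition driven by BMP4, in which mouse epiblast stem cells (EpiSCs, primed pluripotent cells) are carried towards naïve pluripotency through cells that resemble primordial germ cells (PGCLCs). Bulk RNA-seq libraries of 6 groups were used, 11 in all.

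EpiSCs (3 libraries) were grown in N2B27 with Activin A, bFGF and the tankyrase inhibitor XAV939 on serum-coated dishes. Day 3 c-Kit+ and c-Kit- cells (2 libraries each) were separated by sorting on the receptor c-Kit after Stage 1 of the transition, an iCD1 medium with vitamin C, bFGF, LiCl, LIF, CHIR99021 and BMP4 plus the EZH2 inhibitor EPZ6438 and a DOT1L inhibitor. Day 6 BV+SC+ cells (2 libraries) were sorted for the reporters Blimp1-mVenus and Stella-ECFP after 3 days in that medium with EPZ5676, a DOT1L inhibitor, and 3 days in N2B27 with 2 kinase inhibitors and vitamin C, to which the methods add LIF. The labels give this second medium for both libraries, yet replicate 1 is described as 2iJi and replicate 2 as GK15. The study used GK15 as another culture condition for the second stage. It also added a JAK inhibitor in that stage, but its text does not say what 2iJi stands for. The 2 BV+SC+ replicates may therefore come from different media, and medium and replicate cannot be told apart. This pair stood furthest apart of all replicate pairs, with a chi-square per degree of freedom of 45.3 over genes against 2.01 to 4.46 in the others, and it is also the most deeply sequenced. Day 3 cells with and without SGC0946, another DOT1L inhibitor, have 1 library each. Media differ between EpiSCs and BV+SC+ cells, so medium and cell state cannot be told apart in that comparison. The EpiSC line behind each library is not given in the labels. The methods describe lines derived from embryos and, for the BVSC reporters, from reporter ESCs.

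Amino acids enter cells through carriers that differ in what they take and what drives them. The heavy chain 4F2hc, encoded by *Slc3a2*, brings light chains of the *Slc7* family to the plasma membrane, where each exchanges 1 set of amino acids for another. LAT1 (*Slc7a5*) takes up leucine and other large neutral amino acids, and xCT (*Slc7a11*) takes up cystine in exchange for glutamate. The cationic amino acid transporters *Slc7a1*, *Slc7a2* and *Slc7a3* carry arginine and lysine without a heavy chain. *Slc1* carriers take up glutamate or small neutral amino acids, *Slc38* carriers take up glutamine and alanine with sodium, and *Slc36* carriers move small neutral amino acids with protons, often out of the lysosome. Several of these genes are known targets of ATF4, the transcription factor of the amino acid response. Mouse naïve pluripotent cells are known for their dependence on threonine, which they break down with threonine dehydrogenase (*Tdh*).

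Depth was 1726038 to 1841442 expected counts in the sorted Day 3 libraries, 2444211 to 3070115 in EpiSCs, 14778809 and 18099059 in BV+SC+ cells, and 4577685 and 4776143 in the SGC0946 pair. The labelled cell types were checked on markers. The summed TPM (a level per transcript length, scaled to the same total in every library) of 8 trophoblast markers was 15725 and 16751 in c-Kit- cells against 3368 and 3919 in c-Kit+ cells, so trophoblast RNA was lower but not absent in the c-Kit+ sort. The same sum was 463 in BV+SC+ replicate 1, 148 in replicate 2 and 182 to 216 in EpiSCs. Of these markers, 6 of 7 tested were called lower in c-Kit+ cells and 4 of 5 tested were called higher in BV+SC+ cells. A set of 10 naïve and germ cell markers summed to 2661 and 2714 TPM in BV+SC+ cells and 160 to 202 in EpiSCs, all 10 called higher, and *Kit* had 99.6 and 96.0 TPM in c-Kit+ cells and 4.81 and 3.24 TPM in c-Kit- cells. The sorts used c-Kit and reporters of *Prdm1* (Blimp1) and *Dppa3* (Stella), so these 3 genes follow from the sorts and are no separate check. *Dppa3* alone had 1162 and 1202 TPM in BV+SC+ cells. A set of 6 fibroblast markers summed to 34.3 and 36.2 TPM in c-Kit+ libraries, 98.6 and 121 in c-Kit- libraries, and 253 and 255 in the SGC0946 pair. In bulk samples, fewer cells of a type and less RNA per cell cannot be told apart, and the part of these markers in the results was not tested.

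Of the 39 transporters, 21 had more than 3 counts in every library, 16 stayed under 5 TPM in all 11 libraries, and *Slc36a3*, *Slc7a12* and *Slc7a13* were listed at 0 throughout. There were 12 that reached a mean of 50 TPM in at least 1 group. By TPM the highest in EpiSCs was *Slc7a5*, followed by *Slc7a3* and *Slc3a2*, which lay close together, then *Slc1a5* and *Slc7a7*. On GRCm38, *Slc7a5* lies at chr8:121881150-121907694 (minus strand), *Slc7a3* at chrX:101079210-101086020 (minus strand), *Slc3a2* at chr19:8706882-8723369 (minus strand), *Slc7a11* at chr3:49892526-50443614 (minus strand) and *Slc38a6* at chr12:73286779-73354049 (plus strand). Among c-Kit- libraries *Slc7a5* and *Slc3a2* led with overlapping values, while c-Kit+ libraries both had *Slc3a2* above *Slc7a5*. These orders are in TPM, which divides by an effective length estimated in each library. That of *Slc3a2* was 1677 to 1743 bases in the sorted libraries and 2339 to 2374 in the others.

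**Figure D1:**
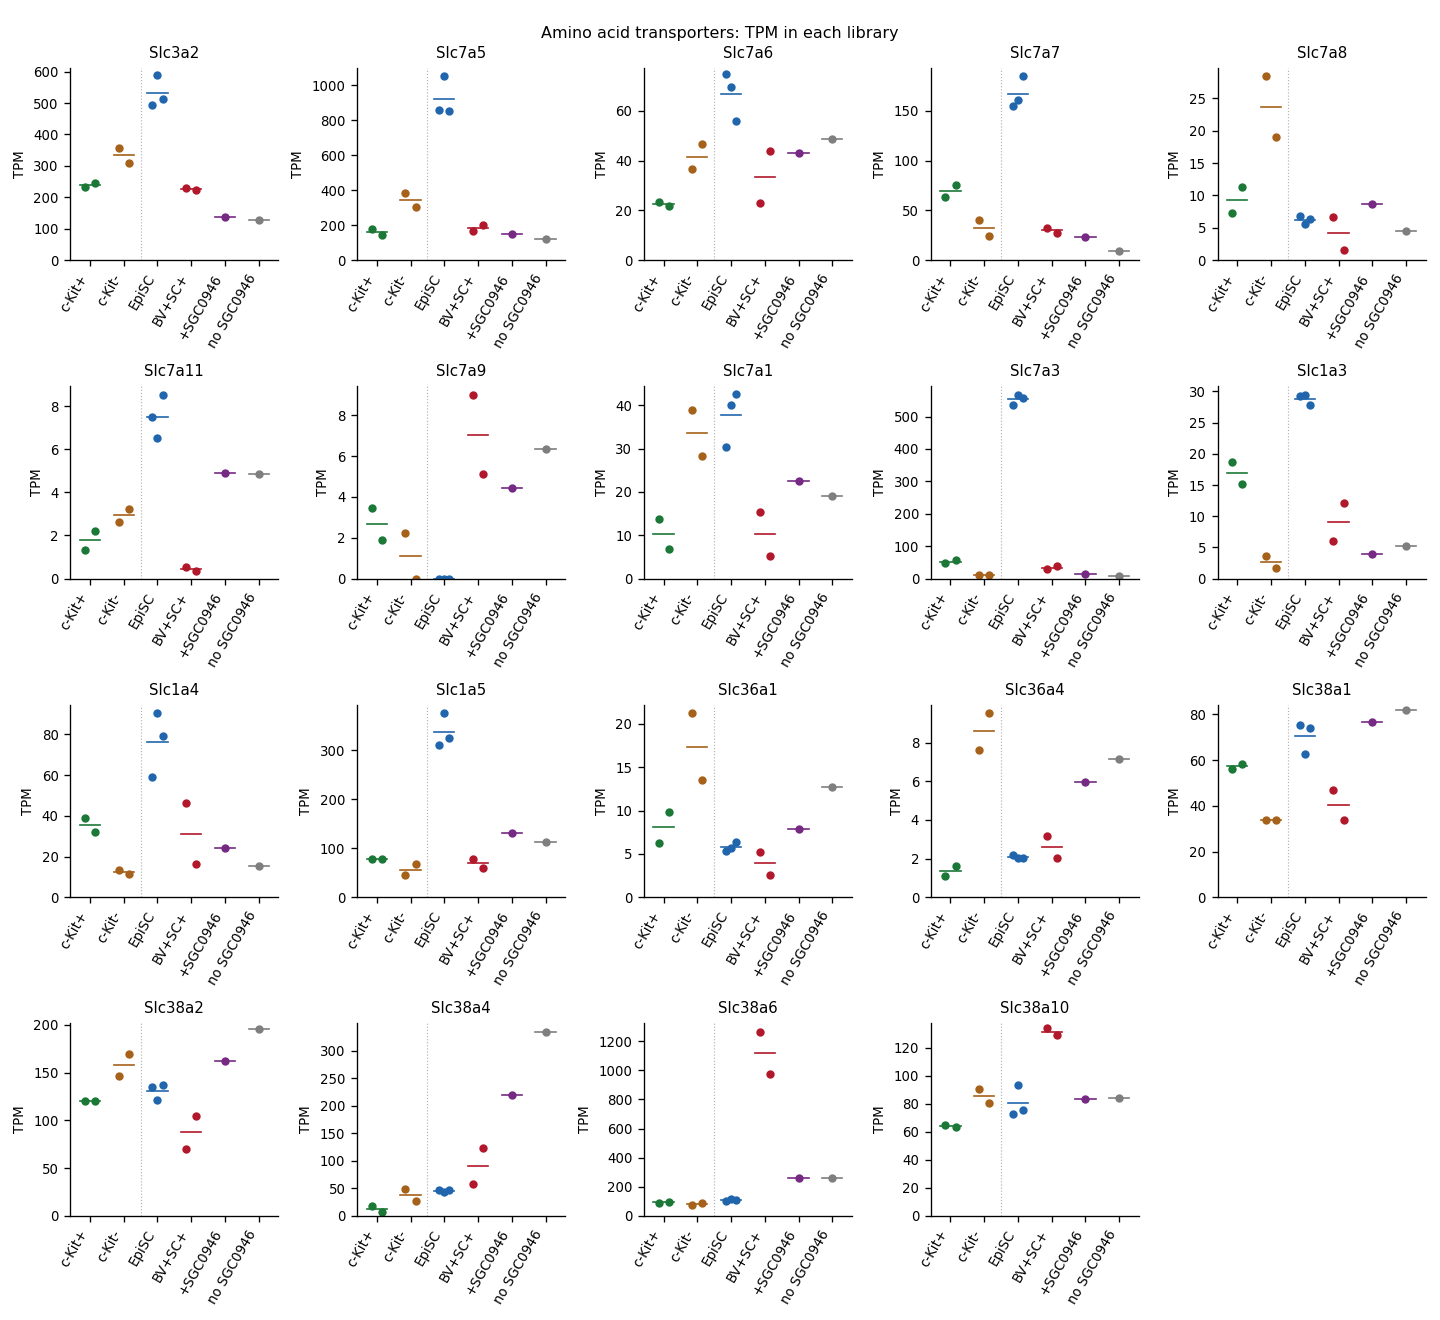
TPM of the 19 amino acid transporters described in full, with 1 point per library, a line at the group mean and a linear axis from 0 in each panel. The dotted line separates the sorted Day 3 cells from the libraries with another gene list. Right of that line EpiSCs stand above the other groups at *Slc3a2*, *Slc7a5*, *Slc7a7*, *Slc7a3*, *Slc1a3*, *Slc1a4* and *Slc1a5*, and BV+SC+ cells at *Slc38a6* and *Slc38a10*.

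The sort on c-Kit asks how the naïve branch differs from the trophoblast-like branch on the same day. c-Kit+ cells carried more mRNA of the arginine and lysine transporter *Slc7a3* (5.21-fold) and of the light chain *Slc7a7* (2.51-fold). The alanine, serine and cysteine carrier *Slc1a4* was 3.15-fold higher. The glutamate carrier *Slc1a3* was 10.5-fold higher, on only 5 and 7 counts in c-Kit- cells. c-Kit- cells carried more *Slc7a1*, *Slc7a8*, *Slc38a4*, *Slc36a1* and *Slc36a4*. A gene was called at a Benjamini-Hochberg adjusted p under 0.05 in edgeR's quasi-likelihood test over all genes together with a fold over 2. Of the 39 members, 23 passed the filter on low counts. Called were 5 as higher and 5 as lower in c-Kit+ cells, against 9.98% of all 11018 genes tested called higher and 12.9% called lower (22.9% either way). The median log2 fold change was -0.02 over the tested members and 0.03 over all genes. A further 6 members passed the adjusted p with less than a 2-fold difference, 2 of them higher and 4 lower in c-Kit+ cells. At any fold, 7 of the 23 tested members passed it as higher and 9 as lower. Of all genes, 20.2% and 21.3% did (41.5% in all).

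*Slc7a3* and *Slc7a1* encode carriers of the same substrates and went opposite ways. *Slc7a3* had 48.7 and 56.6 TPM in c-Kit+ cells and 9.86 and 12.6 TPM in c-Kit- cells. Its groups lay far apart, with a log2 fold change of 2.38 ± 0.26 (SE) and an adjusted p of 9.87e-05. *Slc7a1* had 13.7 and 6.82 TPM in c-Kit+ cells and 38.9 and 28.2 TPM in c-Kit- cells, without overlap. Its log2 fold change was -1.57 ± 0.27, with an adjusted p of 0.00157, and -2.15 without c-Kit+ replicate 1. *Slc7a2*, the other carrier of this kind, was called higher at under 5 TPM in every library (log2 fold change 1.29 ± 0.42, adjusted p = 0.0352), a call lost without c-Kit+ replicate 1 (adjusted p = 0.187), without c-Kit+ replicate 2 (0.139), without c-Kit- replicate 2 (0.144) and in DESeq2 (0.212). Its transcripts also share up to 91.5% of their sequence with *Gm26584*, a lincRNA on the other strand, and whether the counting used strand is not given in the sources used here.

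Among the *Slc1* carriers, *Slc1a3* had 18.7 and 15.2 TPM in c-Kit+ cells against 3.61 and 1.72 TPM in c-Kit- cells. Those c-Kit- values rest on 5 and 7 counts, so the fold of this gene is not known closely (log2 fold change 3.39 ± 0.36, adjusted p = 9.17e-05). *Slc1a3* passed the filter on low counts only through c-Kit+ libraries, where it is high, so its call carries little weight. Under a floor of 10 counts in every library it was not tested. *Slc1a4* had 39.0 and 32.2 TPM in c-Kit+ cells and 13.6 and 11.6 TPM in c-Kit- cells. It too separated the groups, with a log2 fold change of 1.66 ± 0.20 and an adjusted p of 0.000217. The glutamine carrier *Slc1a5* had 77.8 and 78.6 TPM in c-Kit+ cells and 44.8 and 66.9 TPM in c-Kit- cells, and did not pass the test (0.42 ± 0.17, adjusted p = 0.0791). It passed at under 2-fold when replicate number was added to the fit as a block (0.43, adjusted p = 0.0458), with an offset for GC content (0.64, adjusted p = 0.0123), with both together (0.64, adjusted p = 0.000522) and without c-Kit- replicate 2 (0.60, adjusted p = 0.00797).

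The 4F2hc system was split in the same sort. *Slc7a7*, the y+LAT1 light chain that exchanges cationic for neutral amino acids, had 63.2 and 75.5 TPM in c-Kit+ cells and 40.4 and 24.4 TPM in c-Kit- cells (log2 fold change 1.33 ± 0.20, adjusted p = 0.000707). *Slc7a8*, the light chain LAT2, had 7.23 and 11.3 TPM in c-Kit+ cells and 28.4 and 19.0 TPM in c-Kit- cells. It was called lower (-1.21 ± 0.29, adjusted p = 0.0086), and its fold went under 2 without c-Kit- replicate 1 (log2 fold change -0.91) and without c-Kit+ replicate 1 (-0.94). *Slc7a5* was at 179 and 146 TPM in c-Kit+ cells and 384 and 304 TPM in c-Kit- cells, just short of 2-fold (-0.94 ± 0.13, adjusted p = 0.000412). It moved past 2-fold without c-Kit- replicate 2 (-1.13) or without c-Kit+ replicate 1 (-1.11). Its log2 fold change was smaller with the GC offset (-0.57), without c-Kit- replicate 1 (-0.79) and without c-Kit+ replicate 2 (-0.85). *Slc3a2* itself had 234 and 244 TPM in c-Kit+ cells and 358 and 308 TPM in c-Kit- cells (-0.32 ± 0.11, adjusted p = 0.0391), and *Slc7a6*, the y+LAT2 light chain, had 23.4 and 21.7 TPM against 36.7 and 46.6 TPM (-0.62 ± 0.21, adjusted p = 0.04). The heavy chain and these 2 partners were thus lower in c-Kit+ cells at under 2-fold. With an offset for GC content the log2 fold change of *Slc3a2* was -0.01 (adjusted p = 0.925). The *Slc3a2* call was also lost without c-Kit- replicate 1 (adjusted p = 0.138), without c-Kit+ replicate 1 (0.132) and without c-Kit+ replicate 2 (0.102), and that of *Slc7a6* without c-Kit+ replicate 2 (0.227) and with the GC offset (0.066). Sequence shared with other genes was found in 1 of the 9 *Slc3a2* transcripts, at most 6.11% of it with 1 gene. *Slc7a11* had 1.33 and 2.22 TPM in c-Kit+ cells and 2.62 and 3.24 TPM in c-Kit- cells, on 11.6 to 26.2 counts, and was not called (-0.96 ± 0.40, adjusted p = 0.0788), though it was with the GC offset.

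Both tested *Slc36* carriers were called lower in c-Kit+ cells. *Slc36a4* had 1.11 and 1.62 TPM in c-Kit+ cells and 7.62 and 9.53 TPM in c-Kit- cells (-1.96 ± 0.39, adjusted p = 0.00344). Its c-Kit+ values rest on 7 and 11 counts, and under a floor of 10 counts in every library it was not tested. *Slc36a1*, which carries small amino acids across the lysosomal membrane, had 6.30 and 9.83 TPM in c-Kit+ cells and 21.3 and 13.5 TPM in c-Kit- cells (-1.06 ± 0.28, adjusted p = 0.0151). The *Slc36a1* call was lost without c-Kit+ replicate 1 (-0.86, adjusted p = 0.0733), with the GC offset (-0.69, adjusted p = 0.0537) and, by its fold, without c-Kit- replicate 1 (-0.71).

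Of the 9 *Slc38* carriers tested, *Slc38a4* was the single one called. It had 17.0 and 6.87 TPM in c-Kit+ cells and 49.1 and 26.6 TPM in c-Kit- cells, with a log2 fold change of -1.88 ± 0.45 and an adjusted p of 0.00887. Replicates of each group differed widely at this gene. Its log2 fold change ran from -1.24 without c-Kit- replicate 1 to -2.82 without c-Kit+ replicate 1, and DESeq2 gave an adjusted p of 0.0964. *Slc38a1*, a glutamine carrier, was higher in c-Kit+ cells at under 2-fold, with 56.3 and 58.4 TPM against 33.7 and 33.6 TPM (0.91 ± 0.11, adjusted p = 0.000221). *Slc38a2*, the carrier induced when amino acids run short, had 121 and 120 TPM against 147 and 170 TPM (-0.25 ± 0.11, adjusted p = 0.0851), and passed at under 2-fold with the GC offset (-0.51, adjusted p = 0.000955) and without c-Kit- replicate 1 (-0.38, adjusted p = 0.00368). Both glutamine carriers thus lay within 2-fold. *Slc38a10* had 64.7 and 63.3 TPM against 90.8 and 80.4 TPM (-0.46 ± 0.12, adjusted p = 0.0134), a difference that turned to 0.01 with the GC offset (adjusted p = 0.944), and its p was 0.076 without c-Kit+ replicate 2. Up to 54.2% of a *Slc38a10* transcript is shared with *Gm11769* on the other strand. *Slc38a6* had 88.2 and 97.0 TPM against 76.9 and 89.1 TPM, with overlapping groups (0.34 ± 0.12, adjusted p = 0.0442), and its p was above 0.05 without c-Kit- replicate 1 (0.123), c-Kit+ replicate 1 (0.0894) or c-Kit+ replicate 2 (0.335), and with RLE factors, the GC offset and both other filters on low counts (0.0501 to 0.0881). In DESeq2 the adjusted p was 0.183 for *Slc3a2*, 0.162 for *Slc7a6*, 0.251 for *Slc38a6* and 0.0972 for *Slc38a10*. The other *Slc38* members tested, *Slc38a3* (0.74), *Slc38a5* (0.88), *Slc38a7* (-0.02) and *Slc38a9* (0.21), were not called at the log2 fold changes given. Of the members below the filter, *Slc1a6* had 8 and 9 counts in c-Kit+ cells and 1 and 0 in c-Kit- cells, at least 2.88-fold higher against 3 counts per library, and *Slc7a14* had 9 and 12 against 1 and 3, at least 3.54-fold higher.

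**Figure D2:**
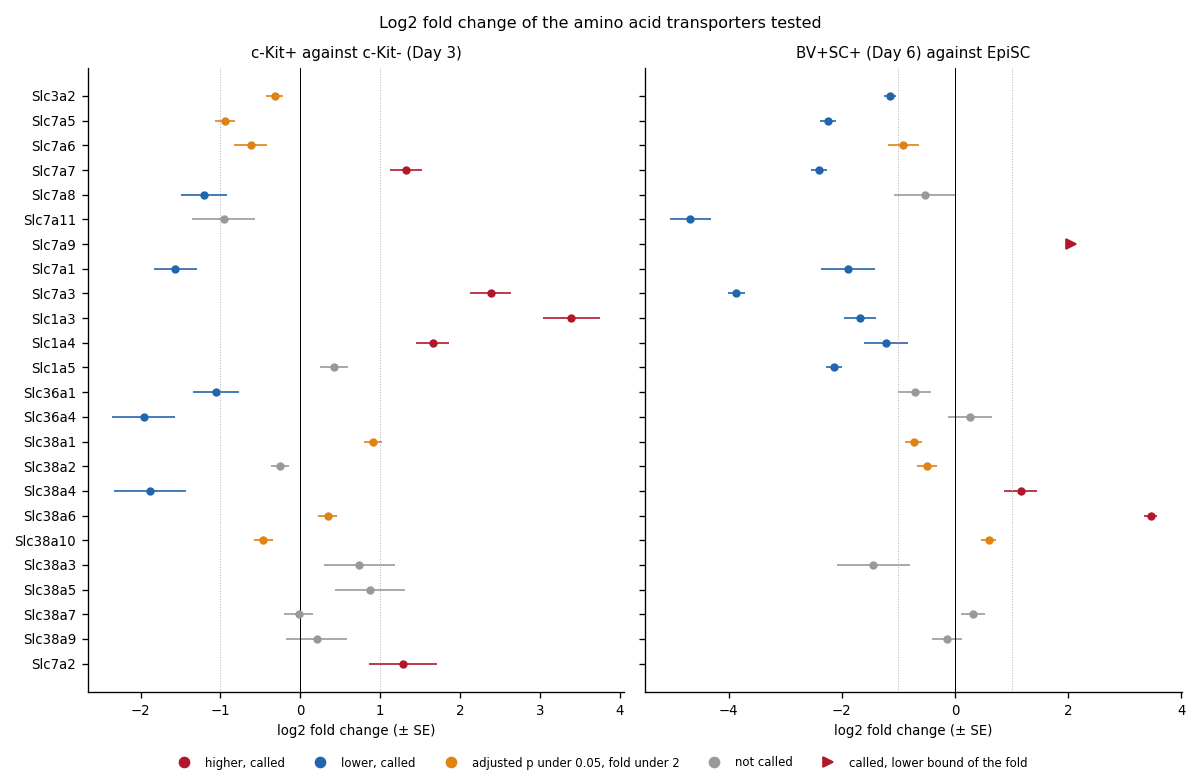
Log2 fold change with its SE from edgeR for each amino acid transporter tested, c-Kit+ against c-Kit- cells on the left and BV+SC+ cells against EpiSCs on the right. Dotted lines mark 2-fold. *Slc7a9* is drawn at its lower bound because EpiSCs had no count. Called members lie on both sides in the sort, 5 higher and 5 lower, and mostly to the left in BV+SC+ cells, 9 lower and 3 higher.

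The comparison of BV+SC+ cells with EpiSCs asks how the germ cell-like intermediate differs from primed cells. BV+SC+ cells had less mRNA of the transporters that dominate EpiSCs: *Slc7a3* was 14.5-fold lower, *Slc7a7* 5.29-fold, *Slc7a5* 4.75-fold, *Slc1a5* 4.40-fold and the heavy chain *Slc3a2* 2.21-fold. The cystine carrier *Slc7a11* was 25.6-fold lower, on 29.1 and 16.0 counts in BV+SC+ cells. Of the 39 members, 22 passed the filter, and 9 were called lower and 3 higher, against 17.2% of all 11792 genes tested called lower and 16.8% called higher (34.0% either way). The median log2 fold change was -0.82 over the tested members and 0.05 over all genes. A further 3 members passed the adjusted p at under 2-fold lower and 1 at under 2-fold higher. At any fold, 12 of the 22 tested members passed it as lower and 4 as higher. Of all genes, 26.5% and 29.6% did (56.0% in all). Without BV+SC+ replicate 1 all 12 calls remained, and without BV+SC+ replicate 2 10 of them did, those of *Slc1a4* and *Slc38a4* being lost. All 3 tested *Slc1* carriers, both tested cationic carriers and the heavy chain were called lower, as were 3 of 6 tested light chains.

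*Slc7a5* had 857, 1056 and 856 TPM in EpiSCs and 168 and 201 TPM in BV+SC+ cells. The groups were widely apart, with a log2 fold change of -2.25 ± 0.14 and an adjusted p of 1.66e-05. An opposite-strand gene, *Gm20388*, overlaps it. *Slc3a2* had 495, 590 and 513 TPM in EpiSCs and 229 and 224 TPM in BV+SC+ cells (-1.15 ± 0.11, adjusted p = 9.76e-05), and this call was lost with the GC offset, where the log2 fold change of -0.97 is under 2-fold. *Slc7a7* had 155, 161 and 185 TPM in EpiSCs and 32.5 and 27.4 TPM in BV+SC+ cells (-2.40 ± 0.14, adjusted p = 1.25e-05). At these 3 genes no BV+SC+ value came near an EpiSC value. Of the *Slc7a7* transcripts, 4 of 12 share up to 11.1% of their sequence with *Oxa1l* on the other strand. *Slc7a6* had 74.8, 69.7 and 55.9 TPM in EpiSCs and 23.0 and 43.9 TPM in BV+SC+ cells (-0.91 ± 0.28, adjusted p = 0.0238), and this p rose above 0.05 without EpiSC replicate 1 (0.0822) or EpiSC replicate 2 (0.0847). Without BV+SC+ replicate 2 its log2 fold change was -1.48, and without BV+SC+ replicate 1 it was -0.51. *Slc7a8* had 6.81, 5.51 and 6.33 TPM in EpiSCs and 6.64 and 1.57 TPM in BV+SC+ cells, overlapping and not called (adjusted p = 0.429).

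*Slc7a11* had 7.48, 6.52 and 8.51 TPM in EpiSCs and 0.54 and 0.34 TPM in BV+SC+ cells. In counts this is 94.9 to 114 in EpiSCs and 29.1 and 16.0 in the more deeply sequenced BV+SC+ libraries. The log2 fold change was -4.68 ± 0.36 with an adjusted p of 4.37e-05, and -5.28 without BV+SC+ replicate 1. *Slc7a11* passed the filter on low counts only through EpiSC libraries, where it is high, so its call carries less weight. It kept its call under a floor of 10 counts in every library. *Slc7a9*, a light chain that pairs with the other heavy chain, *Slc3a1*, was the reverse case. It had no count in the 3 EpiSC libraries and 81 and 62 counts (8.97 and 5.11 TPM) in BV+SC+ cells, at least 4.16-fold higher against 3 counts per EpiSC library, with an adjusted p of 0.00241. It passed the filter on low counts only through the deeper BV+SC+ libraries, where it is high, so its call carries little weight. Under a floor of 10 counts in every library this call was lost. The heavy chain *Slc3a1* had at most 2.37 counts in any of these 5 libraries.

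Among the cationic carriers, *Slc7a3* had 536, 566 and 558 TPM in EpiSCs and 30.2 and 37.98 TPM in BV+SC+ cells (-3.86 ± 0.15, adjusted p = 3.45e-06). *Slc7a1* had 30.4, 40.0 and 42.6 TPM in EpiSCs and 15.4 and 5.29 TPM in BV+SC+ cells (-1.89 ± 0.47, adjusted p = 0.0103). Its BV+SC+ libraries differed widely, and the log2 fold change was -3.11 without BV+SC+ replicate 1 and -1.24 without BV+SC+ replicate 2.

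Of the *Slc1* carriers, *Slc1a5* had 310, 376 and 325 TPM in EpiSCs and 77.7 and 60.4 TPM in BV+SC+ cells (-2.14 ± 0.14, adjusted p = 2.29e-05). *Slc1a3* had 29.3, 29.5 and 27.8 TPM in EpiSCs and 6.10 and 12.2 TPM in BV+SC+ cells (-1.68 ± 0.28, adjusted p = 0.00152), and its log2 fold change was -1.27 without BV+SC+ replicate 1 and -2.24 without BV+SC+ replicate 2. *Slc1a4* had 59.0, 90.6 and 79.3 TPM in EpiSCs and 46.3 and 16.2 TPM in BV+SC+ cells (-1.22 ± 0.39, adjusted p = 0.029). This call was lost without EpiSC replicate 2 (adjusted p = 0.111), without EpiSC replicate 3 (0.073), in DESeq2 (0.0572) and, by its fold, without BV+SC+ replicate 2 (log2 fold change -0.66), while it was -2.13 without BV+SC+ replicate 1. BV+SC+ replicate 1, which had the higher *Slc1a4* and *Slc7a1*, also had the higher trophoblast marker sum given above, and the part of those markers in these 2 values was not tested.

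Of the 8 *Slc38* carriers tested 2 were called, both as higher. *Slc38a4* had 46.9, 43.6 and 46.6 TPM in EpiSCs and 58.1 and 124 TPM in BV+SC+ cells (1.16 ± 0.29, adjusted p = 0.00961). Without BV+SC+ replicate 2 its log2 fold change was 0.48, and with the GC offset it was 0.93. Without EpiSC replicate 2 the adjusted p was 0.0501, and without BV+SC+ replicate 1 the log2 fold change was 1.62. *Slc38a10* was higher at under 2-fold, with 73.0, 93.1 and 75.8 TPM in EpiSCs and 134 and 129 TPM in BV+SC+ cells (0.60 ± 0.13, adjusted p = 0.00592), and passed 2-fold with the GC offset (1.12). *Slc38a1* had 75.4, 62.8 and 74.0 TPM in EpiSCs and 46.9 and 33.6 TPM in BV+SC+ cells (-0.73 ± 0.16, adjusted p = 0.0052). *Slc38a2* had 136, 122 and 137 TPM in EpiSCs and 70.4 and 105 TPM in BV+SC+ cells (-0.50 ± 0.18, adjusted p = 0.0443), and its p was above 0.05 with each of the EpiSC libraries left out (0.0851 to 0.123), without BV+SC+ replicate 1 (0.0755), with the replicate block (0.0794) and under a floor of 10 counts per library (0.0574). At *Slc38a1*, *Slc38a2* and *Slc38a10* the 2 groups did not overlap. *Slc36a1* and *Slc36a4* were not called, with adjusted p of 0.0698 and 0.585, nor were *Slc38a3* (0.0903), *Slc38a7* (0.241) and *Slc38a9* (0.664). *Slc38a5*, below the filter, had 7, 5 and 3 counts in EpiSCs and 2 and 2 in the deeper BV+SC+ libraries, at least 9.39-fold lower against 3 counts per library.

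*Slc38a6* had 103, 113 and 112 TPM in EpiSCs and 1263 and 972 TPM in BV+SC+ cells (3.46 ± 0.12, adjusted p = 2.21e-06), and its level alone made up about as much of the BV+SC+ total as all other members together. This value is uncertain as a measure of the gene. Transcripts of 49 other genes share stretches of at least 75 bases at 98% identity with *Slc38a6* transcripts, among them *Gm42860* (82.7% of 1 transcript) and *Noct* (82.3%). RSEM can divide reads between such copies, and sums over members are therefore given without *Slc38a6*.

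Summed over the other 38 members, TPM was 2941, 3372 and 3048 in EpiSCs and 998 and 1065 in BV+SC+ cells. It was 1045 and 1038 in c-Kit+ cells and 1383 and 1232 in c-Kit- cells. The groups did not overlap in either comparison. With 2 against 2 or 2 against 3 libraries an exact permutation test cannot reach a two-sided p under 0.05, so these sums are given as descriptions.

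The mix of carriers differed between groups as well as the amount. The light chains that pair with 4F2hc (*Slc7a5*, *Slc7a6*, *Slc7a7*, *Slc7a8*, *Slc7a10* and *Slc7a11*) summed to 2.23, 2.22 and 2.18 times the TPM of *Slc3a2* in EpiSCs. The same ratio was 1.01 and 1.23 in BV+SC+ cells, 1.17 and 1.05 in c-Kit+ cells, and 1.38 and 1.29 in c-Kit- cells. The effective length of *Slc3a2* was 1677 to 1743 bases in the sorted libraries and 2339 to 2374 in the others, which raises its TPM in the former. That of *Slc7a5* was 3437 to 3440 and 3219 to 3306. The ratio can therefore be compared within a gene list only. *Slc7a5* made up 76.5% to 80.8% of these partners in EpiSCs and 72.8% and 73.3% in BV+SC+ cells. In the sort it was 65.2% and 56.9% in c-Kit+ cells against 77.9% and 76.5% in c-Kit- cells. *Slc7a7* made up 23.1% and 29.4% of the partners in c-Kit+ cells and 8.21% and 6.14% in c-Kit- cells.

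Of the summed TPM of *Slc7a1*, *Slc7a2* and *Slc7a3*, *Slc7a3* made up 94.5%, 93.4% and 92.8% in EpiSCs and 65.2% and 87.5% in BV+SC+ cells. In the sort it was 73.1% and 85.5% in c-Kit+ cells and 19.4% and 30.1% in c-Kit- cells. The sum itself was 66.6 and 66.2 TPM in c-Kit+ cells and 51.0 and 41.9 TPM in c-Kit- cells, a smaller difference than that in the share of *Slc7a3*. EpiSCs had 566 to 606 TPM of these carriers and BV+SC+ cells 46.3 and 43.4 TPM.

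**Figure D3:**
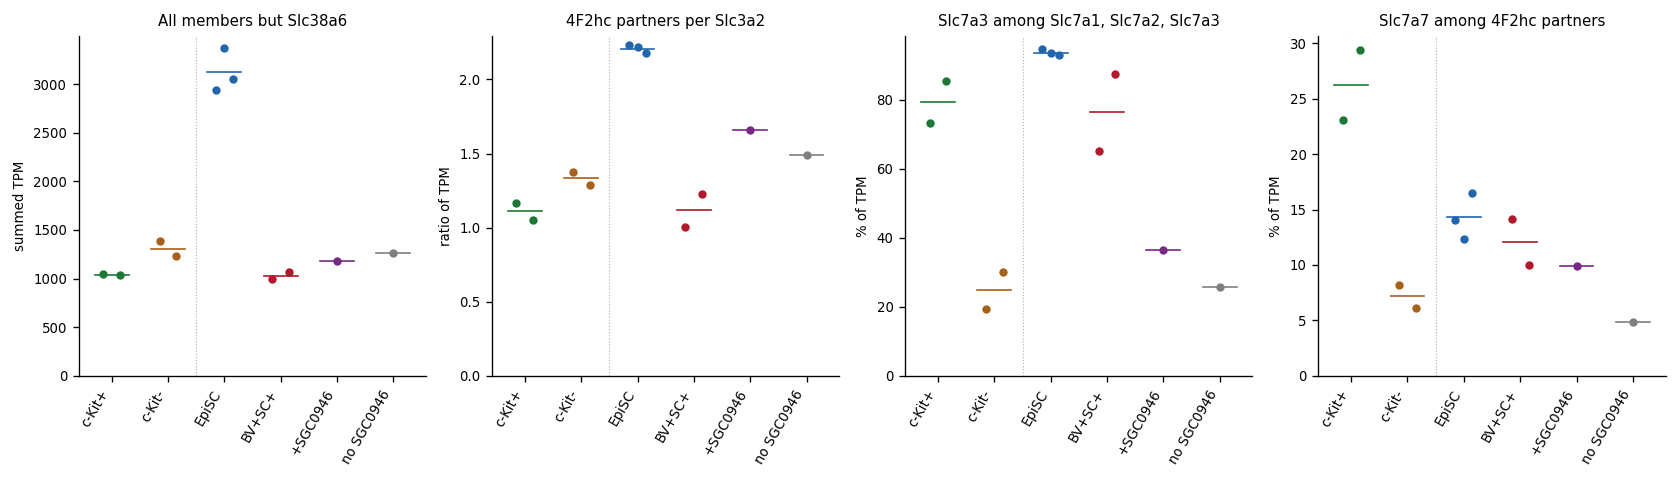
Summed TPM of all members but *Slc38a6*, TPM of the 4F2hc light chains per TPM of *Slc3a2*, the percentage of *Slc7a3* among *Slc7a1*, *Slc7a2* and *Slc7a3*, and the percentage of *Slc7a7* among the 4F2hc light chains, with 1 point per library and a line at the group mean. The dotted line separates 2 gene lists. EpiSCs lie above BV+SC+ cells in the first 3 panels, and c-Kit+ cells lie above c-Kit- cells in the last 2.

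ATF4 drives transcription of amino acid transporters and of enzymes that make serine, asparagine and proline when amino acids are short, and a list of 22 such targets was read beside the transporters. In BV+SC+ cells 19 of the 21 tested were called lower than in EpiSCs, against 17.2% of all genes, with a median log2 fold change of -2.11. The 2 not called were *Cebpg* and *Asns*, which makes asparagine. *Asns* had 432, 572 and 443 TPM in EpiSCs and 903 and 315 TPM in BV+SC+ cells (0.43 ± 0.36, adjusted p = 0.334). The list summed to 3874 to 4656 TPM in EpiSCs and to 2093 and 1110 TPM in BV+SC+ replicates 1 and 2. No gene of the list was called higher by edgeR or DESeq2, and 0 were higher at an unadjusted p under 0.05. The largest decreases were those of *Atf3*, a stress transcription factor, and *Vldlr*, a lipoprotein receptor. *Atf3* had 96.0, 41.4 and 36.5 TPM in EpiSCs and 2.12 and 0.43 TPM in BV+SC+ cells (-5.48 ± 0.70, adjusted p = 0.000424). *Vldlr* had 16.0, 27.4 and 25.8 TPM in EpiSCs and 1.83 and 0.39 TPM in BV+SC+ cells (-4.46 ± 0.67, adjusted p = 0.000915). *Atf4* itself, which is also controlled at translation, had 606, 673 and 658 TPM in EpiSCs and 286 and 203 TPM in BV+SC+ cells (-1.33 ± 0.14, adjusted p = 0.000199). Between 16 and 19 genes of the list were called lower under every alternative run, a check added after the data were seen. In the sort, 5 of 21 were called lower in c-Kit+ cells and 1 higher, against 12.9% and 9.98% of all genes. *Nupr1*, a stress-induced chromatin protein, had 9.38 and 3.86 TPM against 51.7 and 58.5 TPM in c-Kit- cells (-3.39 ± 0.50, adjusted p = 0.00062), and *Trib3*, a pseudokinase induced by ATF4, had 4.72 and 8.10 TPM against 44.4 and 40.8 TPM (-2.81 ± 0.29, adjusted p = 8.60e-05). The one called higher was *Cth*, which makes cysteine from cystathionine, with 27.7 and 17.5 TPM against 5.94 and 7.36 TPM (2.23 ± 0.42, adjusted p = 0.00248).

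Promoter sequence was searched for the C/EBP-ATF response element, through which ATF4 and C/EBP partners bind, because 19 of the 21 tested genes of the list and 9 of the 22 tested transporters were called lower in BV+SC+ cells. Joint movement of the transporters and the list was not tested, and 3 transporters were called higher. RefSeq windows on GRCm38.p6, from 250 bases before to 50 bases after a start site, were matched for 29 of the 39 members (39 windows). *Slc7a3*, *Slc7a5* and *Slc1a5* have none. The letters TGATGNAA, on either strand, stood in 4 of the 39 windows (10.3%), in 7 of 24 windows of the ATF4 list (29.2%) and in 3.97% of all 32851 windows. The members were *Slc7a11*, *Slc1a4* and *Slc7a7*, with sequences shown because all 3 were called lower in BV+SC+ cells. Not every member called lower that could be searched holds the letters. *Slc7a1*, also called lower, has a window without them. Each stretch is on the minus strand and is written 5′ to 3′ on the gene's strand, with the matching letters in capitals, and matches on the other strand read TTGCATCA. *Slc7a11* is at chr3:50443614-50443713 and ends at the base before the start site, *Slc1a4* is at chr11:20332710-20332809 and ends 4 bases into the transcript, and *Slc7a7* is at chr14:54417938-54418090 and ends 7 bases into it.
Slc7a11: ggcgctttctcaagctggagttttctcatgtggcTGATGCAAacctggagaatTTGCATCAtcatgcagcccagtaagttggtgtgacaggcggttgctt
Slc1a4: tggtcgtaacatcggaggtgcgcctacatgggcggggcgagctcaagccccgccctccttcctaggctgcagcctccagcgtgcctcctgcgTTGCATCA
Slc7a7: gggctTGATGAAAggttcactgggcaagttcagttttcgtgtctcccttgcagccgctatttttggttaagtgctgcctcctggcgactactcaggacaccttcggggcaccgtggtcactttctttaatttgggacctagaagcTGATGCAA

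*Slc7a11* holds the letters 2 times within 100 bases, once on each strand, at 66 and 47 bases before the start. *Slc7a7* holds them 141 bases before the start and again across it, and *Slc1a4* across its start. A second *Slc7a7* window, from another start site, holds the last of these again and accounts for the fourth window. These are matches of letters and not measured binding. The 3 genes were not alike in the sort, where *Slc1a4* and *Slc7a7* were called higher in c-Kit+ cells and *Slc7a11* was not called. The antioxidant response element through which NRF2 acts, searched as TGACNNNGC, stood in 5 of 39 member windows (12.8%) and in 12.4% of all windows.

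The counts of the other lists of amino acid genes stand against 9.98% of all genes called higher and 12.9% called lower in the sort, and 16.8% and 17.2% in BV+SC+ cells. None of 20 cytosolic aminoacyl-tRNA synthetases, the enzymes that load amino acids onto tRNA, was called in the sort by edgeR or DESeq2, and at an unadjusted p under 0.05 edgeR had 6 higher and 2 lower. In BV+SC+ cells 5 were called lower and 1 higher, and at an unadjusted p under 0.05 edgeR had 14 lower and 1 higher. The largest decreases were those of *Nars* (409, 454 and 410 TPM in EpiSCs, 186 and 118 in BV+SC+ cells, -1.41 ± 0.18, adjusted p = 0.00042) and *Wars* (163, 180 and 171 TPM, 65.6 and 61.6, -1.35 ± 0.11, adjusted p = 5.97e-05). *Dars* was the one higher, with 97.6, 115 and 127 TPM in EpiSCs and 254 and 243 TPM in BV+SC+ cells (1.22 ± 0.13, adjusted p = 0.000174).

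Of 26 measured genes through which amino acids are sensed by the kinase mTORC1, 4 were called higher in c-Kit+ cells by edgeR and 3 by DESeq2. None was called lower by either, with 6 lower at an unadjusted p under 0.05 in edgeR. The largest were *Rragb*, a Rag GTPase, with 24.7 and 33.4 TPM against 2.36 and 4.79 TPM (2.73 ± 0.42, adjusted p = 0.000855), and *Sesn3*, a sestrin, with 33.0 and 21.2 TPM against 11.7 and 13.5 TPM (1.57 ± 0.20, adjusted p = 0.000232). In BV+SC+ cells 6 were called higher and 3 lower, near the 16.8% and 17.2% of all genes, so these counts are no result about the list. The arginine sensor *Castor1* had 27.9, 41.6 and 33.6 TPM in EpiSCs and 102 and 119 TPM in BV+SC+ cells (1.76 ± 0.19, adjusted p = 0.000185), while its relative *Castor2* had 10.7, 12.8 and 14.5 TPM in EpiSCs and 1.00 and 1.14 TPM in BV+SC+ cells (-3.42 ± 0.22, adjusted p = 1.71e-05). *Tfeb*, a lysosomal transcription factor, was higher (2.37 ± 0.63, adjusted p = 0.0137) and *Rragd*, another Rag GTPase, lower (-1.97 ± 0.44, adjusted p = 0.00615).

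Of 15 genes of threonine, glycine and glutathione metabolism, 5 were called higher and 2 lower in c-Kit+ cells, and 6 were called higher in BV+SC+ cells. None was called lower in BV+SC+ cells by edgeR or DESeq2, with 1 lower at an unadjusted p under 0.05 in edgeR. *Tdh* was listed at 0 in both c-Kit- libraries and had 75.8 and 90.1 TPM in c-Kit+ cells. In BV+SC+ cells it had 807 and 641 TPM, against 1.05 TPM in EpiSC replicate 1 and 0 in the other EpiSC libraries. *Gldc*, of the glycine cleavage system, had 131 and 145 TPM in c-Kit+ cells and 24.4 and 23.9 TPM in c-Kit- cells (2.66 ± 0.13, adjusted p = 1.23e-06). *Gpx4*, a glutathione peroxidase that acts on lipid peroxides, had 356, 366 and 392 TPM in EpiSCs and 899 and 1197 TPM in BV+SC+ cells (1.64 ± 0.15, adjusted p = 9.76e-05). *Gss*, glutathione synthetase, was lower in c-Kit+ cells, with at most 14.7 TPM against at least 46.4 TPM (-1.67 ± 0.23, adjusted p = 0.000472), as was *Glul*, glutamine synthetase (-1.20 ± 0.12, adjusted p = 6.65e-05).

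Of 6 NRF2 targets, which answer oxidative stress as *Slc7a11* does, 4 were called lower in c-Kit+ cells, led by *Srxn1* with 11.3 and 6.60 TPM against 86.6 and 63.8 TPM (-2.89 ± 0.25, adjusted p = 3.20e-05) and *Nqo1* with 9.69 and 0.64 TPM against 46.1 and 26.9 TPM (-2.70 ± 0.64, adjusted p = 0.00807). DESeq2 called 3 lower. *Txnrd1* was higher at under 2-fold, with 289 and 285 TPM against 195 and 161 TPM (0.81 ± 0.10, adjusted p = 0.000187). In BV+SC+ cells 2 of the 5 tested were called lower, *G6pdx* (-1.58 ± 0.12, adjusted p = 4.03e-05) and *Hmox1* (-1.18 ± 0.16, adjusted p = 0.000505). At an unadjusted p under 0.05 edgeR had 4 lower and 1 higher. The higher one was *Nqo1* (0.84 ± 0.27, adjusted p = 0.0305). Carriers of other families gave 2 higher and 2 lower of 9 tested in c-Kit+ cells, and 2 higher and 3 lower of 10 in BV+SC+ cells. With so few genes these counts are not set apart from the 9.98% higher and 12.9% lower of all genes in the sort, or from the 16.8% and 17.2% in BV+SC+ cells. *Slc6a14*, a carrier of neutral and cationic amino acids, had 21.9 and 17.3 TPM in c-Kit+ cells and 0.92 and 1.24 TPM in c-Kit- cells (4.27 ± 0.40, adjusted p = 4.62e-05). The glycine carrier *Slc6a9* was lower in c-Kit+ cells (-2.80 ± 0.40, adjusted p = 0.000544) and in BV+SC+ cells (-3.39 ± 0.32, adjusted p = 0.000103). *Slc6a15*, a carrier of branched-chain amino acids, had 23.8, 23.8 and 23.0 TPM in EpiSCs and 0.37 and 0.47 TPM in BV+SC+ cells (-5.67 ± 0.27, adjusted p = 6.31e-06).

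**Figure D4:**
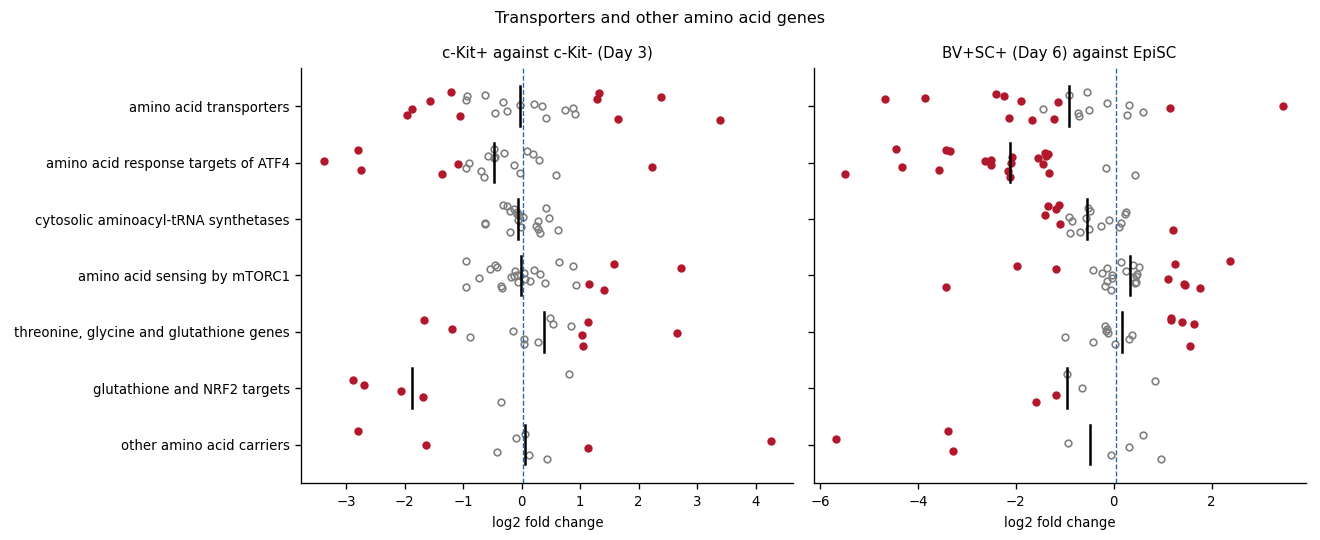
Log2 fold change of every tested gene of the transporters and of 6 lists of other amino acid genes, c-Kit+ against c-Kit- cells on the left and BV+SC+ cells against EpiSCs on the right. Filled points were called, open points were not, black bars are medians of the points drawn, the dashed line is the median of all genes, and genes at 3 counts or fewer in every library of a group are left out. Nearly all ATF4 targets lie to the left in BV+SC+ cells, 19 of 21 called lower against 17.2% of all genes.

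Day 3 cells with and without SGC0946 ask what the DOT1L inhibitor adds. With 1 library each there is no replicate and no test. Of the 39 members, 29 had a TPM over 1 in at least 1 library, and 25 of these differed by less than 2-fold on the TPM + 1 scale. Past 2-fold were 3 as higher with SGC0946 and 1 as lower, against 6.33% of all 14038 genes higher and 3.45% lower (9.78% either way). The median log2 ratio was 0.01 over the members and 0.01 over all genes. *Slc7a7* was the single member past 2-fold at 5 TPM or more, with 22.7 TPM with and 9.13 TPM without SGC0946 (log2 ratio of TPM + 1 of 1.23). Its counts, 117 against 44.2, gave a 2.55-fold ratio at equal depth, with an exact 95% interval for counting error alone of 1.79 to 3.69. *Slc1a6* (3.80 and 1.06 TPM) and *Slc7a14* (3.45 and 1.08 TPM) were higher at low levels, and *Slc1a2* was lower in TPM (1.77 and 4.59) on 53 and 60 counts, which is not past 2-fold in CPM (counts scaled to equal depth).

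*Slc7a3* had 14.8 TPM with and 7.30 TPM without SGC0946, just short of 2-fold on the TPM + 1 scale (log2 ratio 0.93) and 2.15-fold in CPM (1.44 to 3.26). *Slc1a4* had 24.1 and 15.6 TPM, a 1.57-fold ratio in counts (1.27 to 1.95), and *Slc7a8* had 8.65 and 4.49 TPM, a 1.96-fold ratio (1.35 to 2.89). All 3 were higher with SGC0946 by more than the counting error of these libraries. *Slc7a5* (148 and 121 TPM), *Slc3a2* (138 and 126 TPM) and *Slc1a5* (130 and 112 TPM) were within 1.4-fold in CPM. Their ratios were 1.25 (1.15 to 1.36), 1.11 (1.01 to 1.23) and 1.37 (1.22 to 1.53) in that order, also higher by more than counting error. *Slc38a4* was higher in this pair than in EpiSCs or BV+SC+ cells, at 220 TPM with and 333 TPM without SGC0946, a ratio of 0.699 in counts (0.661 to 0.739). *Slc38a2* had 162 and 195 TPM (0.845, 0.794 to 0.899), *Slc38a1* 76.7 and 81.8 TPM, and *Slc38a10* 83.3 and 84.1 TPM. The lower *Slc38a4* and *Slc38a2* lay outside counting error, which is not the spread between cultures. *Slc7a11* had 4.88 and 4.85 TPM, *Slc7a1* 22.4 and 19.1 TPM, *Slc7a6* 43.2 and 48.5 TPM, *Slc36a4* 5.97 and 7.16 TPM, and *Slc38a6* 257 and 261 TPM. *Slc1a3* and *Slc36a1* went opposite ways on the 2 scales: *Slc1a3* had 38 counts with and 20 without SGC0946 but 3.96 and 5.26 TPM, and *Slc36a1* 97 and 80 counts but 7.84 and 12.7 TPM. TPM also divides by an effective length that is estimated in each library.

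**Figure D5:**
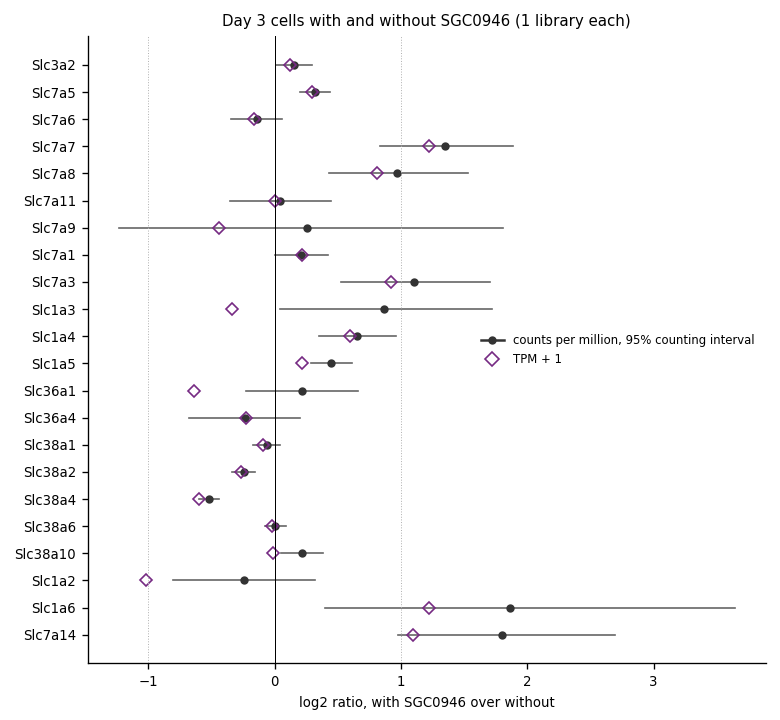
Log2 ratio of Day 3 cells with SGC0946 over cells without it, 1 library each, for the 19 members described in full and the 3 others past 2-fold. Dots with lines give CPM with an exact 95% interval for counting error, diamonds give TPM + 1, and dotted lines mark 2-fold. *Slc7a7* lies past 2-fold on both scales, at 1.23 and 1.35.

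*Slc7a3* made up 36.4% of the 3 cationic carriers with and 25.8% without SGC0946, *Slc7a7* made up 9.92% and 4.86% of the 4F2hc light chains, and the light chains summed to 1.66 and 1.49 times *Slc3a2*. In the same libraries the naïve and germ cell markers summed to 512 TPM with and 198 TPM without SGC0946, the primed epiblast markers, which include *Pou5f1* and *Sox2*, to 697 and 167 TPM, and the trophoblast markers to 4255 and 4226 TPM. Of the primed set, *Pou5f1* had 549 and 67.3 TPM and was the 1 of 4 measured genes past 2-fold. *Sox2* had 101 and 57.7 TPM, *Dnmt3b* 40.4 and 39.1 TPM, and *Otx2* 1.00 and 0.78 TPM. The part of these markers in the transporter values was not tested. Of the ATF4 list, 1 of 22 measured genes was past 2-fold, *Ddit3*, at 12.1 TPM with and 29.5 TPM without SGC0946. Of the other lists, *Tdh* (37.3 and 4.06 TPM), *Castor1* (32.3 and 11.7 TPM), *Srxn1* (12.6 and 3.07 TPM) and *Slc6a14* (1.75 and 0.37 TPM) were past 2-fold as higher, and none of the 20 synthetases was.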

How the data were processed

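RNA-seq libraries of 6 groups were used. The sources give alignment with Bowtie2 and quantification with RSEM (1.3.1 in the submitters' processing notes for the EpiSC, BV+SC+ and SGC0946 libraries; not given there for the sorted cells), on mm10. The authors deposited RSEM expected counts per gene, not normalized between libraries, and TPM, which RSEM scales to the same total in each library after dividing by the estimated effective length. The sorted libraries are labelled mRNA and list 50600 genes. The others were made from rRNA-depleted total RNA and list 29267, so tests stay within a list. Replicates were not pooled, and nothing says whether they were separate cultures, so p-values measure the spread between these libraries.

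Expected counts were rounded and fitted in edgeR 4.0.16 (R 4.3.3; filterByExpr, TMM, quasi-likelihood test, group only), called at a Benjamini-Hochberg adjusted p under 0.05 over all genes and a fold over 2. The methods do not say whether their p is adjusted. The fit was tested on simulated data. The SGC0946 pair was compared as the log2 ratio of TPM + 1 among genes over 1 TPM in a library, with exact Clopper-Pearson-based 95% intervals of the count ratio, which cover counting error only. Groups with at most 3 counts in every library give folds as lower bounds.

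Symbols came from GENCODE M21 (GRCm38), shared sequence from BLAST+ 2.17.0 (98% identity over 75 bases) and promoters from RefSeq. Replicates differed by more than counting error (chi-square per degree of freedom 2.01 to 4.46, and 45.3 in the BV+SC+ pair). Members described in full were called with a mean of at least 5 TPM, were past 2-fold with SGC0946 at 5 TPM, or reached a mean of 50 TPM in a group. Of the other lists, the 2 called genes with the largest increase and the 2 with the largest decrease at 5 TPM were taken. *Atf4*, *Asns*, *Cebpg*, *Kit*, the members under 5 TPM and the list genes named for SGC0946 were added after their values were seen. The members and lists were chosen with earlier results of these data known. Alternatives were RLE factors, other filters, DESeq2 1.42.0, protein-coding genes only, a GC offset, the replicate block, other thresholds and each library left out. Single-cell and chromatin data were not used here.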

Additional observations from a re-analysis of the deposited data

How the results depend on the processing

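The member counts were 5 higher and 5 lower in c-Kit+ cells and 3 higher and 9 lower in BV+SC+ cells. In c-Kit+ cells, requiring at least 10 counts in every library left 3 called higher and 4 lower, as *Slc1a3*, *Slc7a2* and *Slc36a4* were no longer tested. The adjusted p at any fold gave 9 lower. Leaving out 1 library gave 4 to 5 higher and 3 to 6 lower in c-Kit+ cells, 2 to 3 higher and 8 to 10 lower in BV+SC+ cells. The 3 lower were those without c-Kit- replicate 1. A library left alone in its group is assumed to vary like the other group. *Slc38a10* turned from -0.46 to 0.01 in c-Kit+ cells with the GC offset, alone (0.01224) or with the replicate block (0.01245). Members past 2-fold lower with SGC0946 went from 1 to 0 in CPM. On TPM rescaled to the protein-coding genes of both lists, the sum without *Slc38a6* was 1486 in c-Kit+, 1686 in c-Kit-, 3493 in EpiSC and 1164 in BV+SC+ cells, 1325 with and 1408 without SGC0946. On TPM as deposited with 1 library left out, it ranged from 1038 to 1045, 1232 to 1383, 2994 to 3210 and 997.9 to 1065 in the 4 replicated groups in that order. In a check added after the data were seen, the ATF4 list had 5 genes called lower in c-Kit+ cells, 3 under the 10-count filter and 5 to 6 with 1 library left out, and in BV+SC+ cells 17 to 19 with 1 library left out. Same-numbered sorted libraries were deposited under matching dates, which may mark shared sorts though the labels do not say so, and the correlation of their deviations was 0.123. EpiSCs and BV+SC+ cells share only a number (-0.034 and 0.002). With the replicate block, all 10 and all 12 member calls remained, *Slc1a5* passed in the sort at under 2-fold, *Slc38a2* no longer did in BV+SC+ cells, and *Slc38a3* and *Slc7a6* were added as lower in BV+SC+ cells (3 higher and 11 lower). The c-Kit libraries hold at most 1841442 counts each, so members with few counts, such as *Slc7a2*, could not be placed closely.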
